A study of Mus musculus with 5 samples.

Results

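A set of 10 marker genes of T cells and natural killer (NK) cells was followed in blood stem and progenitor cells, and the members were the listed genes themselves, matched by symbol. All were found among the 39056 genes of the count table. They were Cd3d, Cd3e, Cd3g, Cd4, Cd8a, Lck, Tcf7, Gata3, Klrb1c and Ncr1. RNA had been sequenced from cells of the LSK gate (lineage-negative, Sca-1-positive, Kit-positive marrow cells, where blood stem cells and early multipotent progenitors are found), with about 12000 sorted cells per library. The 2 wild-type (WT) libraries came from C57BL/6 mice at postnatal day 15. The 3 null libraries came from C57BL/6 mice of the same age carrying a Gabbr1 null mutation, which removes a subunit of the GABA-B neurotransmitter receptor. The labels do not say which part of the gene is deleted or whether a library came from 1 animal, and the extraction protocol gives an n of 4 for each genotype where the samples are 2 and 3. The spread behind each p-value is that among these 5 libraries, which may be technical.

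T cells recognise antigen through a receptor whose signal is carried by the CD3 chains, with CD4 or CD8 as a coreceptor that brings the kinase Lck to the complex. NK cells lack that receptor and use activating and inhibitory surface receptors in its place. The regulators Tcf7 and Gata3 act earlier than the receptor, in the progenitors that enter the T lineage and in innate lymphoid precursors. Because an LSK gate is meant to leave out mature lymphocytes, these genes show which pieces of the T and NK programmes were read in the sorted cells of each genotype.

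Total counts ranged from 6972753 to 8150774 per library. Gabbr1 levels, as CPM (each gene's share of a library's reads, scaled for composition), were 49.5 and 57.4 for WT libraries 1 and 2 against 38.5, 34.8 and 33.0 for null libraries 1, 2 and 3. All values per library below keep that order. Its log2 fold change was -0.59 ± 0.13 (SE) at an edgeR adjusted p = 0.0361. Leaving out either WT library ended the call (edgeR adjusted p = 0.0722 and 0.38), as did leaving out null 2 or null 3 (0.0802 and 0.137). Kit, a gene of the gate, was between 864 and 1049 CPM in all 5 libraries, and Ly6a, which encodes Sca-1, was between 12.9 and 30.3 CPM. Of 9 tested genes of the gate and of multipotent progenitors, 2 were called lower in null and 0 higher. For 6 of them every null library was below every WT library. Over all tested genes 0.334% were called lower and 13.7% lay below in this way. Their summed level was 3164 and 3337 CPM for WT against 2439, 2693 and 2562 CPM for null. Null library 1 stood apart in several ways. It held 22532 counts of the X-inactivation transcript Xist against at most 21 elsewhere, and its summed level of 12 mature neutrophil genes was 2234 CPM, against 109 to 148 CPM for WT and 598 and 136 CPM for null libraries 2 and 3. The summed level of 7 late erythroid genes was 35.0 CPM in null library 1 and 3.58 to 7.79 CPM elsewhere. Among 12 tested genes of an endothelial and stromal list, 6 were called higher in null, against 2.15% of all tested genes. Those called included Cdh5 (5 and 12 WT counts), Kdr (5 and 14) and Sparc (2 and 7). These passed the filter on low counts through the null libraries in which they were high. The summed level of the list was 252 and 281 CPM for WT and 361 to 471 CPM for null. The part of such cells in the results below was not tested.

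The 10 markers fell into 4 that were read in every library and 6 that were close to 0. Lck, Cd4, Gata3 and Tcf7 each had at least 17 counts in each library and passed the filter on low counts. Cd3d, Cd3e, Cd3g, Cd8a, Klrb1c and Ncr1 did not pass it and were not tested. Of the 4 tested, 1 was higher in null and 0 were lower (edgeR, adjusted p under 0.05; DESeq2 and limma-voom gave the same counts). Over all 13467 tested genes, 2.15% were called higher and 0.334% lower. With an unadjusted p under 0.05, 2 of the 4 were higher and 0 lower, where the whole table had 7.99% and 4.84%. For 2 of the 4 every null library was above every WT library and for 0 it was below, against 15.5% and 13.7% of all tested genes. The gene that rose was Tcf7.

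**Figure D1:**
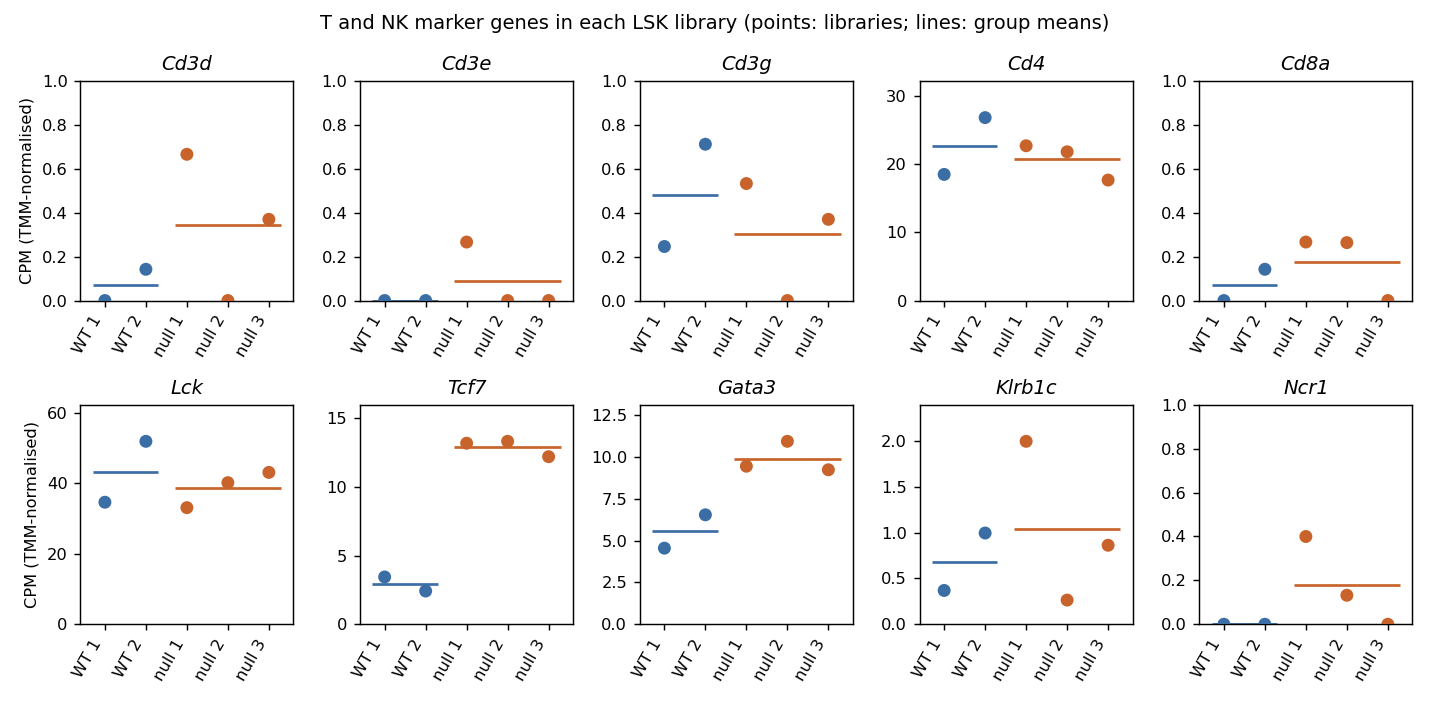
Level of each of the 10 marker genes in each library, in TMM-normalised CPM on a linear axis, with WT libraries in blue, null libraries in orange and lines at the group means. Tcf7 was between 12.2 and 13.3 CPM in the null libraries and at most 3.45 CPM in WT, while Lck and Cd4 overlapped between genotypes and the CD3, Cd8a and Ncr1 panels stayed under 1 CPM.

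Tcf7 encodes TCF-1, a transcription factor that Notch signalling switches on in the earliest thymic progenitors and that innate lymphoid precursors also use. The gene (ENSMUSG00000000782.15) lies on the minus strand of chromosome 11, from 52252371 to 52283014 in mm10. Counts of 28 and 17 (WT) compared with 99, 101 and 99 (null). Scaled levels were 3.45 and 2.42 CPM (WT) against 13.2, 13.3 and 12.2 CPM (null). All 3 null libraries were above both WT libraries, and they lay close to each other. More cells of a type and more RNA per cell cannot be told apart in bulk libraries. Mean levels were 2.93 ± 0.72 CPM (WT, SD, n = 2) and 12.9 ± 0.61 CPM (null, SD, n = 3), a ratio of 4.40. The log2 fold change was 2.12 ± 0.27 (SE, 95% interval 1.54 to 2.70, edgeR adjusted p = 0.00117). The call was lost without WT library 2, where 1 WT library with the higher Tcf7 level remained (log2 fold change 1.90, edgeR adjusted p = 0.0646).

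Gata3 encodes a zinc finger factor needed for the T lineage and for type 2 lymphoid cells. It (ENSMUSG00000015619.10) lies on chromosome 2, from 9857078 to 9890034 on the minus strand. Of its exonic length, 3.9% overlaps an antisense gene and 1.9% overlaps 9230102O04Rik on the same strand. Gata3 was at 4.55 and 6.55 CPM (WT) against 9.46, 10.9 and 9.25 CPM (null). Each null library was above each WT library. Mean levels were 5.55 ± 1.41 CPM (WT, SD, n = 2) and 9.89 ± 0.93 CPM (null, SD, n = 3). The log2 fold change was 0.84 ± 0.26 (SE). This was not called (edgeR adjusted p = 0.158, unadjusted p = 0.00784), and the 95% interval before adjustment over genes was 0.27 to 1.41.

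Lck, the Src family kinase that starts T cell receptor signalling, had the highest CPM of the 10 genes. The gene (ENSMUSG00000000409.14) lies on chromosome 4, from 129548344 to 129573641, and has 2 annotated start sites 15269 bases apart, which counts per gene do not tell apart. Lck was at 34.6 and 51.8 CPM (WT) against 33.0, 40.1 and 43.0 CPM (null). The 2 WT libraries enclosed null libraries 2 and 3, and null library 1 was the lowest of all. The log2 fold change was -0.15 ± 0.18 (SE, 95% interval -0.54 to 0.24, edgeR adjusted p = 0.804).

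Cd4 encodes the coreceptor of helper T cells, which is also found on some dendritic cells and early thymic progenitors. It (ENSMUSG00000023274.14) lies on chromosome 6, from 124864692 to 124888221. Cd4 was at 18.5 and 26.8 CPM (WT) against 22.7, 21.8 and 17.6 CPM (null), so the groups overlapped. Its log2 fold change was -0.13 ± 0.20 (SE, 95% interval -0.56 to 0.30, edgeR adjusted p = 0.867). For both Cd4 and Lck, the interval leaves out a 2-fold change in either direction. Without WT library 2 both estimates turned positive, to 0.16 for each, and neither was called (edgeR adjusted p = 0.881 and 0.861).

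The CD3 chains, which define T cells, were near the limit of detection. Cd3e had 0 counts in both WT libraries and 2, 0 and 0 in null libraries 1, 2 and 3. Cd3d had 0 and 1 counts (WT) against 5, 0 and 3 (null), and Cd3g had 2 and 5 (WT) against 4, 0 and 3 (null). In null library 2 no count of any CD3 chain was found among 7530382 counts. Summed over the 3 chains, WT held 8 counts in 14953383, or 0.535 CPM (95% exact Poisson interval 0.231 to 1.05), and null held 17 counts in 23473427, or 0.724 CPM (0.422 to 1.16). The null-to-WT ratio of those sums was 1.35, with an exact 95% interval of 0.554 to 3.62. Intervals from counts cover counting error only. At this depth a difference in CD3 transcripts was not detectable, and both sums were far below the CPM of Lck or Cd4 in the same libraries.

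The 3 CD3 genes are neighbours on chromosome 9. Cd3g (minus strand, 44969572 to 44980431) and Cd3d (plus strand, 44981786 to 44987339) have 1354 bases between their starts and are read away from each other, and Cd3e (minus strand, 44998740 to 45009627) follows 11400 bases beyond Cd3d. Their start regions are shown because the 3 genes serve 1 complex and all stayed near 0, including in the libraries where Tcf7, whose protein binds the TCF/LEF core, was highest. Each line gives the 250 bases before a RefSeq start (GRCm38.p6), 5′ to 3′ on the gene's own strand.
Cd3d, chr9:44981536-44981785, plus strand: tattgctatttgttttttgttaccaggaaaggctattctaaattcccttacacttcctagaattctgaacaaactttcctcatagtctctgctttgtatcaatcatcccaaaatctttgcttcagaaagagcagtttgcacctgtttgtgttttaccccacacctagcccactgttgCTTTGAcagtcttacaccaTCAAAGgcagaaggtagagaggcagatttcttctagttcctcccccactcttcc
Cd3g, chr9:44980432-44980681, minus strand: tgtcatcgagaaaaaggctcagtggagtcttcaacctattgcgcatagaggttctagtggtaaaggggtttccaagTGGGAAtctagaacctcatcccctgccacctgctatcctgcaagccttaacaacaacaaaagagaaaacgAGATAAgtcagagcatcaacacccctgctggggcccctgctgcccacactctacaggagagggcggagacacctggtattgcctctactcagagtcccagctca
Cd3e, chr9:45009612-45009861, minus strand: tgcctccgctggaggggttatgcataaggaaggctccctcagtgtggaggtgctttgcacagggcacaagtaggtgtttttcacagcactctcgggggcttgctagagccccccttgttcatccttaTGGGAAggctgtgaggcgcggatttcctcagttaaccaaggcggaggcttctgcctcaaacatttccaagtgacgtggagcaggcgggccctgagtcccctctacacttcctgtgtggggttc

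Capitals mark matches, on either strand, to the TCF/LEF core CTTTGA, to AGATAA, a core of GATA factor sites, and to TGGGAA, a core of sites for RBPJ, the DNA-binding partner of Notch. Cd3d held 2 TCF/LEF cores, Cd3g held 1 GATA core and 1 RBPJ core, and Cd3e held 1 RBPJ core. Among 32536 different windows of 250 bases before RefSeq starts, 13.9% held the TCF/LEF core, 9.97% the GATA core and 21.6% the RBPJ core. These matches describe the letters only.

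The remaining 3 markers were as low. Cd8a, the coreceptor chain of cytotoxic T cells (chromosome 6, 71373427 to 71379173), had 0 and 1 counts (WT) against 2, 2 and 0 (null). Its null-to-WT ratio of summed counts was 2.55, with an exact 95% interval of 0.252 to 125. Ncr1, which encodes the NK receptor NKp46 (chromosome 7, 4337724 to 4345164), had 0 counts in both WT libraries and 3, 1 and 0 in null.

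Klrb1c, which encodes the NK1.1 antigen (chromosome 6, 128778485 to 128789215), was the most read of the untested members, with 3 and 7 counts (WT) against 15, 2 and 7 (null). Part of its exonic length, 13.9%, overlaps the predicted gene Gm44511 on the same strand, so some of these counts cannot be placed. The null-to-WT ratio of its summed counts was 1.53, with an exact 95% interval of 0.705 to 3.58. Null library 1, the library with the high neutrophil level, held 31 of the 49 null counts of the 6 untested members, and null libraries 2 and 3 held 5 and 13, against 5 and 14 in WT. The part of other cells in those counts was not tested. A fit with no filter on low counts called none of the 6 (edgeR adjusted p between 0.818 and 0.863).

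Levels of different genes were compared per exonic length, as CPM per kilobase. In WT the order was Lck (14.8 ± 4.17), Cd4 (5.61 ± 1.46), Gata3 (1.40 ± 0.36) and Tcf7 (1.12 ± 0.28, SD, n = 2 for each). Gata3 and Tcf7 did not differ beyond their spread in WT. In null the order was Lck (13.2 ± 1.75), Cd4 (5.13 ± 0.66), Tcf7 (4.92 ± 0.23) and Gata3 (2.49 ± 0.23, SD, n = 3 for each). There Tcf7 and Cd4 did not differ beyond their spread, while Tcf7 lay above Gata3 by more than both SDs together. The other 6 genes were at 0.352 CPM per kilobase or lower in both groups.

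**Figure D2:**
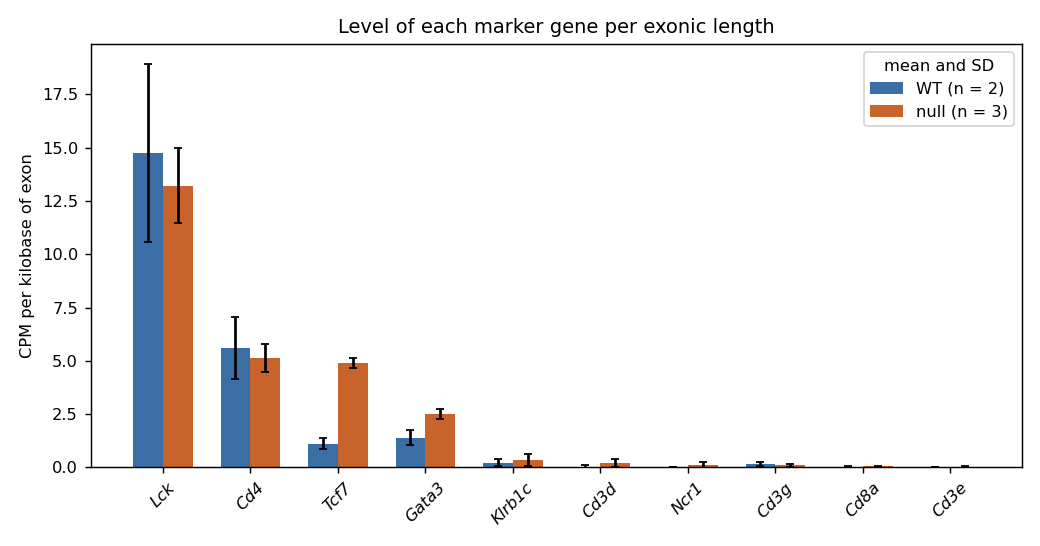
Level of each marker gene in CPM per kilobase of exon, on a linear axis from 0, as the mean of 2 WT libraries (blue) and 3 null libraries (orange) with SD as error bars. Tcf7 moved from 1.12 in WT to 4.92 in null, next to Cd4 at 5.13, and the 6 genes to the right of Gata3 stayed at or below 0.352.

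Genes were also ranked by how close their profile over the 5 libraries was to that of each tested marker, as the root mean squared difference of centred log2 CPM. Nearest to Tcf7 were Rhoj and Myo1e (0.09 and 0.15), and Rhoj was at 0.369 and 0.142 CPM (WT) against 2.13, 2.11 and 1.73 CPM (null). Nearest to Gata3 were BC051142 and Rap1gap2 (0.08 and 0.09). Sergef and Acacb were nearest to Lck (0.02 and 0.03), and Gfi1 and Zfp276 to Cd4 (0.03 for each).

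Around the 10 markers, 66 other T, NK and innate lymphoid genes from 4 lists were matched, and 41 of them were tested. Of these, 8 were higher in null and 0 lower (edgeR adjusted p under 0.05; 7 and 1 by DESeq2, 6 and 0 by limma-voom, 15 and 4 with no adjustment of p). Their median log2 fold change was 0.23, and that of all tested genes was -0.00. The number called fell to 3 without WT library 1 and to 1 without WT library 2. Some uncalled genes in the median, such as Klrd1 and Il2rb, passed the filter through the null libraries in which they were high. Among the called genes, so did Bcl11b, Ikzf3, Trbc1 and Il1rl1, described below. With a filter of at least 1 CPM in every library these were not tested, and 4 of 30 genes were called.

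Regulators of the T cell programme gave 4 of those 8 calls. Of 11 tested, Bcl11b, Lef1, Ets1 and Ikzf3 were higher in null and 0 were lower (4 and 0 by DESeq2, 3 and 0 by limma-voom, 5 and 0 with no adjustment of p, 2 and 0 of 9 with the stricter filter). Lef1, the closest relative of Tcf7 and a gene expressed in early B cells as well as T cells, was at 11.8 and 3.13 CPM (WT) against 128, 64.3 and 108 CPM (null). The log2 fold change was 3.70 ± 0.40 (SE), with an edgeR adjusted p = 0.000513, and a robust fit did not call it (edgeR adjusted p = 0.194). It moved to 4.98 without WT library 1 and to 3.08 without WT library 2. Of its exonic length 13.7% overlaps an antisense gene, and whether counting used strand is not stated. Null library 2 had the lowest Lef1 level of the null group, while the Tcf7 counts of 99, 101 and 99 were too close to order.

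Bcl11b, which commits thymic progenitors to the T lineage, had 2 and 1 counts (WT) against 22, 33 and 28 (null). With 3 WT counts in all, the ratio of summed counts was 17.6, with an exact 95% interval of 5.83 to 87.2 (edgeR adjusted p = 0.00421, lost without WT library 1 or WT library 2, at 0.0686 and 0.158). Ets1, a factor used by T, B and NK cells, was at 78.7 and 60.5 CPM (WT) against 162, 123 and 144 CPM (null) (log2 fold change 1.04 ± 0.15 SE, edgeR adjusted p = 0.00246, lost without WT library 2 at 0.123). Ikzf3, the Ikaros family factor Aiolos of developing B and T cells, was at 0.615 and 0.57 CPM (WT) against 5.20, 6.73 and 1.73 CPM (null) (edgeR adjusted p = 0.0398). That call was lost in limma-voom (adjusted p = 0.224), without either WT library (edgeR adjusted p = 0.189 and 0.431) and without null 2 (0.0823). Neither Notch1 nor Satb1, the 2 most abundant, was called: their log2 fold changes were 0.01 ± 0.15 and 0.23 ± 0.12 (SE), with edgeR adjusted p = 0.987 and 0.436.

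T cell receptor genes gave 1 call among 3 tested of 9, and 0 of 2 with the stricter filter. Trbc1, a constant region of the beta chain, had 3 and 1 counts (WT) against 25, 34 and 22 (null) (3.66 ± 0.63 SE as a log2 fold change, with edgeR adjusted p = 0.00807). This call was lost without WT library 1 or WT library 2 (edgeR adjusted p = 0.0759 and 0.22), and the fold moved to 4.46 on the log2 scale without WT library 1. Its neighbour Trbc2, whose sequence is nearly the same, had 43 and 22 counts (WT) against 38, 12 and 23 (null), and how reads were divided between the pair is uncertain. Trac, the constant region of the alpha chain, had at most 2 counts in any library, and Ptcra, the pre-receptor alpha chain, had 1 count in all. Cd247, the zeta chain that signals with CD3, was between 3.07 and 4.22 CPM in all libraries (log2 fold change 0.04 ± 0.36 SE, edgeR adjusted p = 0.984). Of its exonic length 56.4% overlaps Pou2f1 on the opposite strand, so how much of this level is Cd247 is uncertain.

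Genes of T cell signalling and the T cell surface were not called. Among 14 tested of 21, 0 passed in edgeR, with 3 higher and 3 lower before adjustment (0 and 1 by DESeq2, 0 and 0 by limma-voom). Cd27, a costimulatory receptor also found on multipotent progenitors, was at 142 and 139 CPM (WT) against 114, 97.1 and 102 CPM (null), and did not pass (log2 fold change -0.42 ± 0.11 SE, edgeR adjusted p = 0.069; DESeq2 adjusted p = 0.0458). Lcp2, the adaptor SLP-76, was not called either, at -0.23 ± 0.10 on a log2 scale (SE), with an edgeR adjusted p = 0.357. Themis, a regulator of thymocyte selection that was not tested and was named after its values were seen, had 0 counts (WT) against 9, 8 and 9 (null).

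Among NK and innate lymphoid genes 3 were called. Of 13 tested among 24, Id2, Zbtb16 and Il1rl1 were higher and 0 were lower (2 and 0 by DESeq2 and by limma-voom, 6 and 1 with no adjustment of p, 2 of 10 higher with the stricter filter). Id2, an inhibitor of E proteins that innate lymphoid cells need and many myeloid cells express, was at 10.3 and 7.55 CPM (WT) against 38.2, 23.0 and 15.2 CPM (null) (ratio of means 2.85, edgeR adjusted p = 0.0378). Zbtb16, which encodes PLZF, a factor of innate lymphoid precursors, was at 2.58 and 1.99 CPM (WT) against 8.79, 9.24 and 6.78 CPM (null) (log2 fold change 1.84 ± 0.32 SE, edgeR adjusted p = 0.00933). Il1rl1, the interleukin-33 receptor of type 2 lymphoid cells and mast cells, was at 2.09 and 0.142 CPM (WT) against 12.0, 8.18 and 7.28 CPM (null) (log2 fold change 2.95 ± 0.57 SE, edgeR adjusted p = 0.016). All 3 lost the call without WT library 2 (edgeR adjusted p = 0.519, 0.202 and 0.171 in that order), and Id2 and Zbtb16 without WT library 1 (0.155 and 0.0702). Id2 was also lost in limma-voom and the robust fit (adjusted p = 0.133 and 0.272), and Il1rl1 in DESeq2 (adjusted p = 0.102). The log2 fold change of Il1rl1 was 5.84 without WT library 1, 2.12 without WT library 2 and 3.64 in limma-voom. The levels of Id2 in null libraries 1, 2 and 3 had the same order as the neutrophil sums given above, and the part of those cells was not tested.

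Several genes that define mature NK cells were at or near 0. Gzma, a granzyme, had 1 count in the 5 libraries together, Klre1, Klrc1, Klra8 and Klra4 had 0, and Eomes and Tbx21, the factors that set the NK fate, had at most 2 counts in any library. Nkg7, a granule gene, was at 35.0 and 27.8 CPM (WT) against 30.8, 27.2 and 36.7 CPM (null), with no call (0.01 ± 0.17 SE on a log2 scale, with edgeR adjusted p = 0.993). Il18rap and Cd244a, the 2 most abundant of the list, were not called either: their log2 fold changes were 0.06 ± 0.14 and 0.32 ± 0.12 (SE), with edgeR adjusted p = 0.91 and 0.284. Klrd1 was at 0.615 and 0.855 CPM (WT) against 4.53, 2.90 and 1.11 CPM (null), also with no call (edgeR adjusted p = 0.205). Il2rb, Ccl5 and Klrk1 were named after their values were seen. Il2rb had 9 and 0 counts (WT) against 13, 17 and 9 (null), and Ccl5 had 17 and 8 against 26, 28 and 18. Neither was called (edgeR adjusted p = 0.487 and 0.443). Klrk1, not tested, had 1 and 1 counts (WT) against 6, 3 and 5 (null). For 9 of the 13 tested genes of the list every null library was above every WT library, and for 1 it was below. Over all tested genes those shares were 15.5% and 13.7%. The median log2 fold change of the list was 0.93. Klrd1, Il2rb, Ccl5 and Il1rl1 passed the filter on low counts through the null libraries in which they were high. Both the count of 9 and the median include them.

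**Figure D3:**
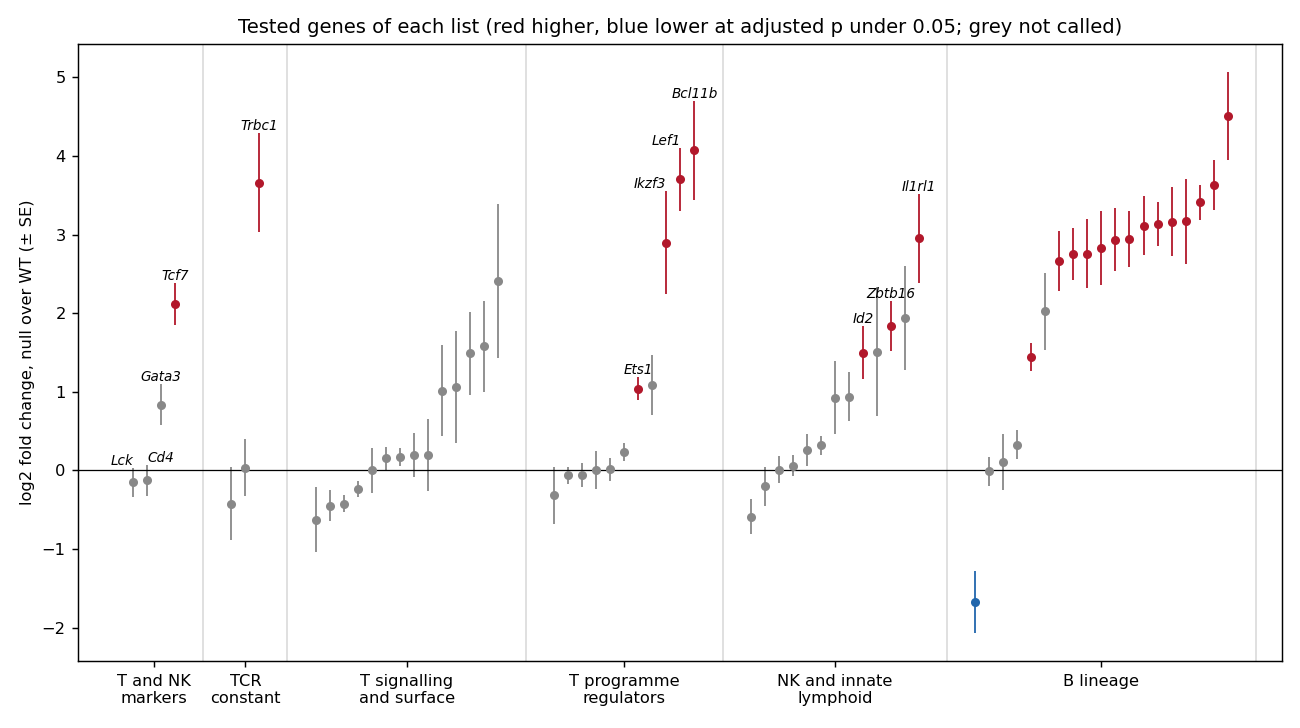
Log2 fold change, null over WT, with SE for each tested gene of 6 lists, ordered within each list, with genes called higher in red, called lower in blue and not called in grey. Among the T and NK markers only Tcf7 (2.12) was called, and 14 of 19 tested B lineage genes were called higher, a number that was 7 in a robust fit and 4 without WT library 2.

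B lineage genes served as the contrast. Of 19 tested, 14 were higher in null and 1, Igkc, lower (14 and 0 by DESeq2 and by limma-voom, 12 and 1 of 16 with the stricter filter). Of those called, Ms4a1 (3 and 2 WT counts), Vpreb2 (16 and 5) and Cd22 (10 and 7) passed the main filter through the null libraries in which they were high. The median log2 fold change of the list, with these genes included, was 2.83. The 4 tested T and NK markers had 1 called and a median of 0.36. The B lineage genes called higher numbered 7 in the robust fit and 4 without WT library 2. This difference between lists is a description and was not tested. Pax5, the factor that commits progenitors to the B lineage, was at 28.8 and 7.41 CPM (WT) against 174, 123 and 182 CPM (null) (3.11 ± 0.37 SE on a log2 scale, with edgeR adjusted p = 0.000942), a call that the robust fit did not make (edgeR adjusted p = 0.237). Its fold moved to 4.42 on the log2 scale without WT library 1 and to 2.47 without WT library 2. The summed level of the 10 T and NK markers was 61.7 and 89.6 CPM (WT) against 82.5, 86.8 and 83.7 CPM (null), so the sums overlapped. Lck and Cd4 made up most of that sum in every library, so it says little of Tcf7 or Gata3. The summed level of the B lineage genes was 907 and 1300 CPM (WT) against 2043, 1475 and 2101 CPM (null), with no overlap. Most of that sum in WT was Ighm (506 and 835 CPM) and Igkc (151 and 341 CPM), neither of which was called higher in null.

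The order of the libraries within each group was also described. Relative to the WT mean, the median B lineage gene was at 3.22, 2.22 and 3.11 on the log2 scale in null libraries 1, 2 and 3, lowest in null library 2. Tcf7 was at 2.17, 2.18 and 2.06, and Gata3 at 0.77, 0.98 and 0.74. Their null counts (99, 101 and 99 for Tcf7, 71, 83 and 75 for Gata3) are too close to order the null libraries. Not every B lineage gene was lowest in null library 2: Igkc (31.7, 111 and 87.3 CPM in null) and Bank1 (8.0, 15.4 and 5.9 CPM) were highest there. Within WT, Tcf7, Lef1 and Pax5 were each higher in library 1, while Gata3, Lck and Cd4 were each higher in library 2. The part of B lineage cells in the Tcf7 level was not tested. Of the markers that define T cells, Cd3e was at 0 in 4 of 5 libraries, and null library 2, with 13.3 CPM of Tcf7, held no CD3 count.

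**Figure D4:**
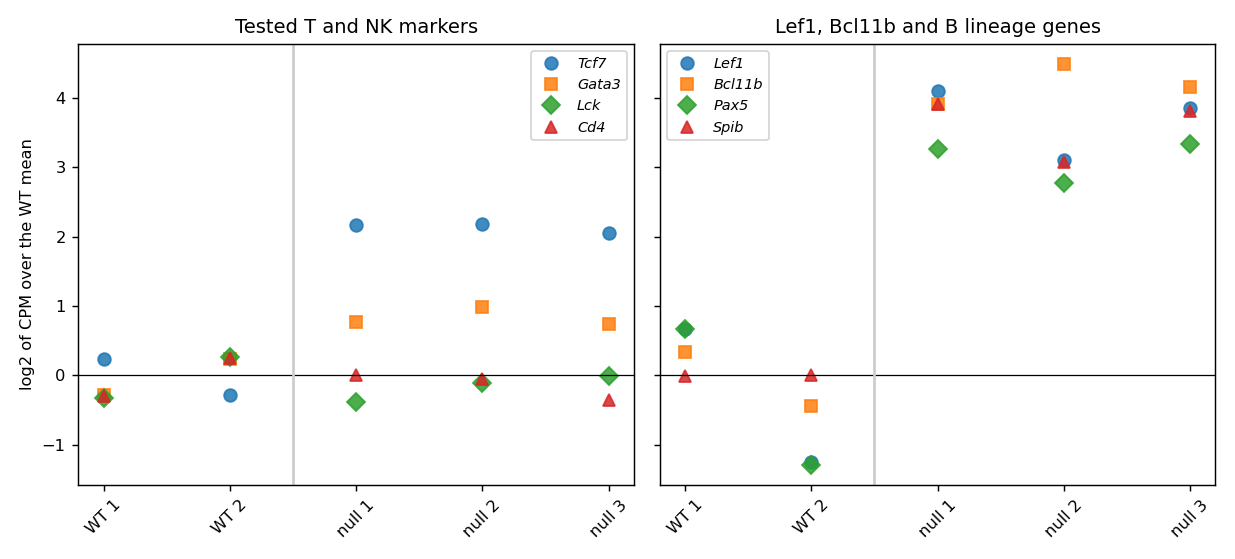
Level in each library relative to the WT mean, as log2 of CPM over that mean, for the 4 tested T and NK markers (left) and for Lef1, Bcl11b and 2 B lineage genes (right). The 3 null values of Tcf7 lie between 2.06 and 2.18, those of Gata3 between 0.74 and 0.98, and those of Lck and Cd4 no higher than 0.00, while Pax5, Spib and Lef1 dip in null library 2.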

How the data were processed

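The table the authors deposited holds raw counts, 1 column for each of 5 libraries. The submitters' processing notes name STAR, featureCounts and mm10. Versions, strand setting and treatment of multiply matching reads were not stated. Libraries were made from 3.6 to 5 ng of RNA with an rRNA-depleting kit and read as 2 x 50 bp, per the labels' protocols, while the molecule field says polyA RNA.

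Identifiers were matched, ignoring versions, to GENCODE M21 (99.5% of 39056), the source of symbols, coordinates and exonic lengths; 1 of 165 list entries matched none. Genes kept by filterByExpr (13467) were scaled by TMM and entered edgeR's quasi-likelihood test (version 4.0.16, R 4.3.3), genotype as the only term, with Benjamini-Hochberg adjustment over all of them. SEs were derived from F. Limits for sums of counts are exact Poisson and, for ratios, exact binomial, both at 95%. Alternatives used DESeq2 1.42.0, limma-voom (limma 3.58.1), other scalings and filters, a robust fit, another threshold and each library left out. The fit was tested on simulated data. Libraries of 1 group differed by more than sampling noise (chi-square per degree of freedom 8.21 to 13.1). Replicate numbers follow sample order.

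Named were the 10 markers, Gabbr1, Kit, Ly6a, list members past the threshold, the 2 most abundant of each list and the 2 nearest profiles. The text gives a selection and says more of Nkg7, Klrd1, Klrk1, Il2rb, Ccl5, Bank1, Trac, Ptcra and the genes near 0 as list members outside that rule. Markers and lists were chosen with earlier results of these data known. Promoter windows are from RefSeq (GRCm38.p6) and were matched for 9 of the 10 markers, all but Cd4. The values of 1 listed gene are not reported here.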

Additional observations from a re-analysis of the deposited data

How the results depend on the processing

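Tcf7 was called higher in 11 of the 12 alternative fits and not without WT library 2. Leaving out 1 library gave 0 to 1 marker higher and 0 lower, 1 to 9 other T and NK genes higher and 0 lower, and 32 to 316 of all genes higher and 0 to 51 lower; the lone WT library is then assumed to vary like the null ones. With no filter on low counts, 602 genes were higher and 155 lower, and with CPM of at least 1 in every library 173 genes and 4 other T and NK genes were higher. An adjusted p under 0.1 gave 81 genes lower. Cd27 was the 1 other T and NK gene called lower with no filter, DESeq2, the robust fit or an adjusted p under 0.1. Other scalings kept each direction and call of the markers. No paired analysis was possible because the labels give no replicate numbers shared between groups. Depth limits the 6 markers near 0, for which single counts decide a ratio. Igkc, the 1 B lineage gene called lower, lost that call in DESeq2, limma-voom and the robust fit (adjusted p = 0.355, 0.0676 and 0.512), without either WT library (edgeR adjusted p = 0.0816 and 0.672) and without null 3 (0.0539). Its log2 fold change was -0.98 without WT library 2.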

Other observations

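Cd4 and Cd8a are also expressed by some dendritic cells, whose genes formed another list. Of 14 listed genes 11 were tested, and 2 were higher in null and 0 lower (3 and 0 by DESeq2, 2 and 0 by limma-voom, 5 and 2 with no adjustment of p). Irf8, a factor of dendritic cells and monocytes that B cells also express, was at 39.1 and 34.5 CPM (WT) against 159, 86.6 and 77.7 CPM (null) (log2 fold change 1.55 ± 0.26 SE, edgeR adjusted p = 0.00728). Ly6d, a surface marker of early B lineage cells and lymphoid dendritic progenitors, was at 5.42 and 4.70 CPM (WT) against 19.4, 13.1 and 17.01 CPM (null) (1.70 ± 0.25 SE, edgeR adjusted p = 0.00271). Both calls were lost without WT library 1 (edgeR adjusted p = 0.115 and 0.0593) or WT library 2 (0.304 and 0.131), and Irf8 also in the robust fit (0.318). Siglech, a marker of plasmacytoid dendritic cells, was at 2.21 and 0.427 CPM (WT) against 8.93, 2.51 and 0.616 CPM (null) and was not called (edgeR adjusted p = 0.525).

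Tcrg-C1, a constant region of the gamma chain of the T cell receptor named after its values were seen, had 1 and 0 counts in WT and 13, 6 and 10 in null. With 1 WT count, its ratio of summed counts was 18.5 with an exact 95% interval of 3.06 to 754. Tcrg-C4 had 1 and 0 counts in WT and 3, 3 and 6 in null. Its sum in each group was below that of the CD3 chains, though null library 2 held 3 counts against 0. These genes are near copies of each other, so the division of reads among them is uncertain.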
